A study of Danio rerio with 4 samples.

Results

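Isolated distal periderm-only NFRs are stretches of open chromatin that were called in both libraries of zebrafish periderm, in neither library of the remaining cells, and at a distance from regions called in all 4 libraries and from each other. NFR stands for nucleosome-free region, a stretch of DNA marked by short ATAC-seq fragments, which are left where the transposase Tn5 cuts between nucleosomes. They were selected on the peak calls themselves. Any peaks of the 4 lists sharing 1 bp or more were taken as a single region, which gave 694637 regions, and a region was periderm-only when it held a peak of both GFP-positive lists and of neither GFP-negative list. There were 10906 such regions, 1.57% of all regions. A region was shared when it held a peak of all 4 lists. The isolated regions were the periderm-only regions more than 5 kb from any shared region and more than 20 kb from any other periderm-only region, measured edge to edge. They numbered 3343, which was 30.7% of the periderm-only regions and 0.481% of all regions. Because the calls and the distances chose these regions, their values are given as descriptions and without a test.

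The cells were taken at the 4-somite stage from Tg(krt4:GFP) embryos of 2 independent incrosses, and 50000 cells of each kind were sorted per incross. All 4 libraries thus carried the transgene, in which the promoter of krt4, a keratin gene of the embryo's surface, drives GFP. GFP-positive cells are labelled periderm and GFP-negative cells non-periderm, a mixture of all other cell types, so a region used by a rare cell type among them can be too dilute to be called. The 2 libraries of each group came from pools of embryos. With 2 against 2 libraries compared without pairing, no exact test can fall below p = 0.333 (two-sided).

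The periderm is the outermost layer of the early embryo, a flat epithelium that forms from the enveloping layer of the blastula and seals the surface before the layered epidermis matures. Its genes, among them keratins and the tight-junction claudins, are driven in zebrafish by transcription factors such as Grhl and Klf17. Active promoters, enhancers and insulators all appear as NFRs. Promoters are often open in many cell types at once, whereas enhancers tend to be open in few, and enhancers can act on a gene over long distances. No gene or sequence is attached to the regions here, since no genome of their build was used.

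The 4 lists held from 190059 to 455867 peaks. The value given with each peak is read as its fold enrichment over the even background of its own library. In each list all values were whole multiples of 1 step (within 0.02 steps), and the number of steps less 1 is given below as the summit depth, the number of tags stacked at the highest point of a peak. From the steps, replicates 1 and 2 of the GFP-positive cells held an implied 24915272 and 29455701 tags, and those of the GFP-negative cells 42446900 and 37589491 tags. The weakest peak of each list had 5, 6, 6 and 6 tags in the same order. Scaled to the implied depth, this was 0.201 and 0.204 tags per 1000000 implied tags in the GFP-positive lists and 0.141 and 0.160 tags per 1000000 in the GFP-negative lists. No called peak was narrower than 53 bp. A region without a peak in a list is therefore one with no stretch of that width at that depth, and is not shown to be closed. As a check of the label, 5 elements that the study places around cldne, a claudin gene of the periderm, were all called in GFP-positive replicate 1 and in GFP-positive replicate 2, while 1 of the 5 was called in GFP-negative replicate 1 and 0 in replicate 2. The study had picked these elements in the same libraries, and none of the regions there was isolated, since 3 were clustered and 1 lay within 5 kb of a shared region.

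The isolated regions were near the typical peak of replicate 1 in depth and below that of replicate 2. In GFP-positive replicate 1 the median summit depth was 10 tags, with quartiles of 8 and 12, a lowest value of 5 and a highest of 50. In replicate 2 the median was 10 tags, with quartiles of 9 and 13, a lowest value of 6 and a highest of 48. Over all peaks of the lists the medians were 10 tags in replicate 1 and 12 tags in replicate 2, with widths of 92 and 99 bp. As fold over background, the medians were 5.61 and 5.15, a mean of 5.38 ± 0.325 (SD, n = 2). Within the lists these medians lay at percentiles 52.7 and 29.8, so the isolated regions ranked near the middle of replicate 1 and in the lower part of replicate 2, the shorter list. Scaled to implied depth, 61.1% of the isolated regions were deeper in replicate 1 than in replicate 2. The share was similar in the other periderm-only regions, at 62.2% of those within 5 kb of a shared region and 63.1% of the rest. At the weakest depth the list allows there were 41 isolated regions in replicate 1 and 72 in replicate 2, and 2 regions were at the weakest depth in both.

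Depth was only loosely shared by the libraries. The most frequent pair of values was 8 tags in replicate 1 and 10 tags in replicate 2, found in 110 regions. At least 10 tags in both lists were reached by 1244 isolated regions (37.2%), and at least 20 tags in both by 59 (1.76%). Across the 3343 regions, Spearman's rho between the summit depths of the lists was 0.35 and Pearson's r 0.51. For peak width rho was 0.31. These correlations describe sites that share the same 2 libraries and the same lower limit, and no test was made of them.

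**Figure D1:**
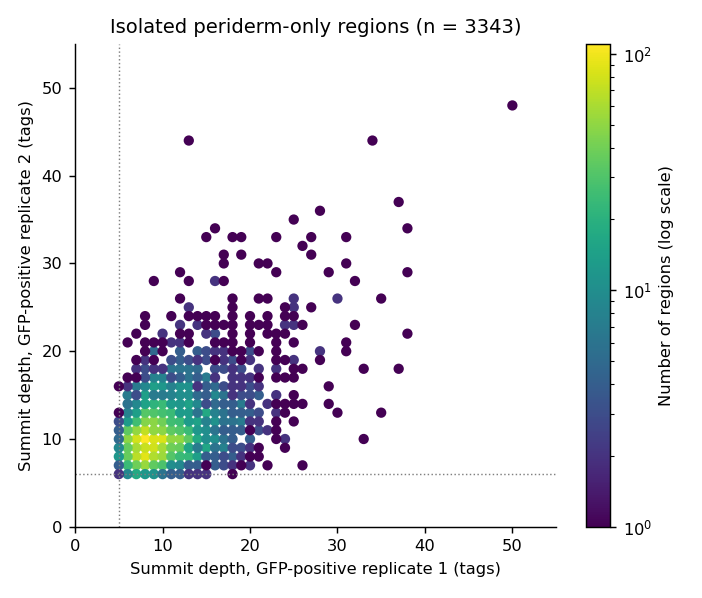
Summit depth of the isolated periderm-only regions in GFP-positive replicate 1 (x axis, tags) and replicate 2 (y axis, tags). Each point is a pair of depths, coloured by the number of regions on a log scale, and dotted lines mark the weakest call of each list (5 and 6 tags). The regions crowd near 8 and 10 tags, and few reach 20 tags in both lists.

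The strongest isolated regions stood well above this crowd. They are given in the order of the lower of their percentiles in the 2 GFP-positive lists. The first, chr8:33334822-33335223, had 50 tags in replicate 1 and 48 in replicate 2, a fold of 26.0 and 22.9, over 402 bp. It was the deepest isolated region in both lists, and it lay 5.46 kb from the nearest shared region and 1.40 kb from the nearest GFP-negative peak. The next, chr9:31269342-31269729, had 34 and 44 tags (fold 17.8 and 21.1) over 388 bp, and its nearest peak of any GFP-negative list was 6.51 kb away. These were the only 2 isolated regions in the strongest 10% of both lists. Such regions were as rare among the other periderm-only regions. They were 3 of the 5895 within 5 kb of a shared region and 1 of the other 1668. At chr6:51552680-51552839 both lists had 37 tags (fold 19.4 and 17.8) within 160 bp, and a peak of GFP-negative replicate 2 lay 0.277 kb away.

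The other members of the leading 10 were close to each other in strength. The region chr25:7758605-7758887 had 28 and 36 tags in replicates 1 and 2, and chr18:44288412-44288691 had 38 and 34. At chr22:13823808-13824016 the depths were 25 and 35 tags, and this region was the most remote of the 10 from shared regions, at 19.7 kb, and from other periderm-only regions, at 237 kb. The region chr14:8855873-8856273 had 27 and 33 tags and was the widest after the first, at 401 bp. The remaining ones were chr19:32705910-32706080 with 31 and 33 tags, chr15:22790624-22790986 with 26 and 32, and chr23:34348208-34348353 with 27 and 31. The 10 regions lay on 10 different chromosomes and spanned 146 to 402 bp. Of these 10 regions, 7 had no GFP-negative peak within 1 kb. For comparison, 46.3% of all isolated regions had such a peak. Among the 331 isolated regions with a sum of 31 to 98 tags over both lists, 36.0% had one.

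Typical isolated regions looked different. Many regions tied at the median of that ranking, and the first 3 of these in genome order were chr1:1336560-1336640 with 12 tags in replicate 1 and 10 in replicate 2, chr1:2536441-2536613 with 11 and 10 tags, and chr1:5558767-5558864 with 9 and 10 tags. Their widths were 81, 173 and 98 bp. The nearest shared region lay 10.2, 15.3 and 11.0 kb away, and the nearest other periderm-only region 60.04, 43.5 and 42.3 kb away.

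Some isolated regions were strong in 1 library and near the limit in the other. The region chr14:16500001-16500159 had 26 tags in replicate 1 (percentile 88.6) and 7 in replicate 2 (percentile 3.74). The regions chr16:48768578-48768733, with 22 and 7 tags, and chr22:39941233-39941359, with 18 and 6 tags, leaned the same way. In the other direction, chr16:6482686-6482843 had 6 tags in replicate 1 (percentile 5.74) and 21 in replicate 2 (percentile 76.2). The regions chr15:37246784-37246851, with 5 and 16 tags, and chr25:21747829-21747987, with 6 and 17 tags, followed. With 1 library on each side, these differences have no replicate check.

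The rule requires the peaks of the 2 lists to overlap, so their positions are described within that limit. The merged isolated regions had a median width of 115 bp (quartiles 88 and 149 bp, range 53 to 510 bp) and covered 422 kb of the genome together. The median width of the peaks was 89 bp in replicate 1 and 73 bp in replicate 2. The peak of 1 list lay wholly inside that of the other in 1371 isolated regions (41.0%), and the median overlap was 94.3% of the shorter peak. The centres of the 2 peaks were a median of 20 bp apart. In 397 regions (11.9%) the overlap was under 50% of the shorter peak, so these rest on 2 peaks that touch only in part. A further peak was merged into 23 isolated regions.

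Position and width were also read by depth. Among the 68 isolated regions with the lowest depths, a sum of 11 to 13 tags over both lists, the centres were a median of 23.5 bp apart and the median overlap was 83.1% of the shorter peak. Among the 512 isolated regions whose depths summed to 14 to 16 tags over both lists, the centres were a median of 26.0 bp apart and the median overlap was 78.4%. Among the 331 regions with a sum of 31 to 98 tags, the offset was 16.5 bp, the overlap 100% and the merged width 165 bp, against 109 bp in the shallower group. The 3 widest isolated regions were chr16:52417699-52418208 (510 bp, 17 and 30 tags), chr5:32380569-32381060 (492 bp, 35 and 26 tags) and chr11:32135998-32136428 (431 bp, 9 and 13 tags). The last of these showed a wide peak of modest depth in replicate 2, 431 bp across, over a peak of 135 bp in replicate 1. The 3 regions that headed those with a further peak were chr1:49024330-49024561 (13 and 12 tags), chr3:21622661-21622890 (10 and 11 tags) and chr3:25674292-25674495 (13 and 8 tags).

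The isolated regions were then set beside the other periderm-only regions. Of the 10906, 5895 (54.1%) lay within 5 kb of a shared region, and 1668 (15.3%) lay farther off but within 20 kb of another periderm-only region and are called clustered here. The median depth was 10 tags in both lists for isolated regions and for those near shared regions, and 10 and 11 tags for clustered regions. Median widths in replicates 1 and 2 were 89 and 73 bp for isolated, 92 and 78 bp for near-shared and 102 and 84 bp for clustered regions. The isolated regions were thus the narrowest of the 3 classes in both lists, by differences smaller than that between the lists. At least 20 tags in both lists were reached by 1.76% of isolated, 2.65% of near-shared and 5.52% of clustered regions. Spearman's rho between the depths was 0.35, 0.39 and 0.47 in the same order. The position of the 2 peaks was much alike in the 3 classes. Their overlap was under 50% of the shorter peak in 11.9% of isolated, 11.1% of near-shared and 9.59% of clustered regions. The centres were a median of 20, 19.5 and 19.75 bp apart. Shared regions were deeper and wider, with medians of 19 and 17 tags and of 158 and 129 bp. Regions are not replicates of a condition, so the differences between classes were not tested. Without GFP-positive replicate 1 the isolated class held 5593 regions, 1580 of them among the 3343, and without GFP-positive replicate 2 it held 2285, 199 of them among the 3343. Without GFP-negative replicate 1 or 2 it held 4646 or 3946 regions, 2287 or 2622 of them among the 3343.

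**Figure D2:**
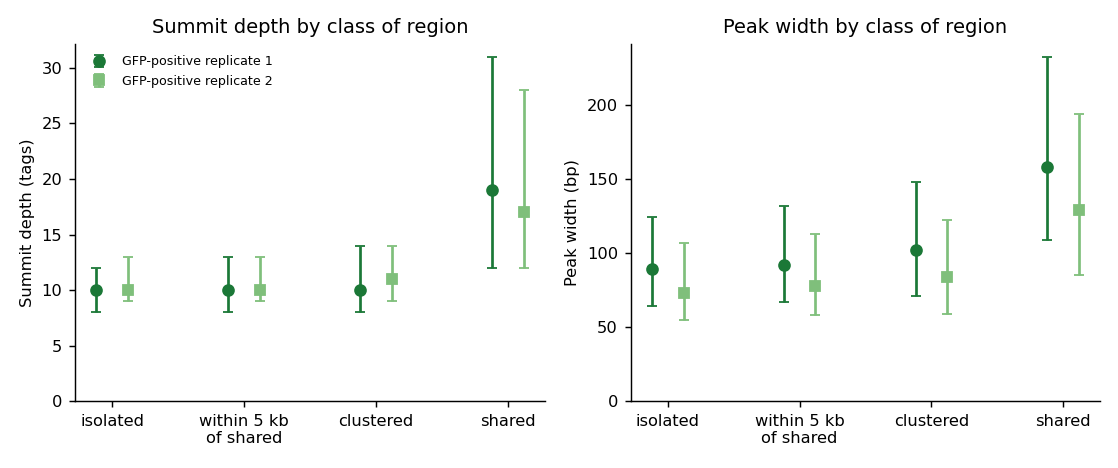
Summit depth (left, tags) and peak width (right, bp) of the strongest peak per region in isolated, near-shared, clustered and shared regions. Points are medians and bars the quartiles over regions, with circles for GFP-positive replicate 1 and squares for replicate 2. The 3 periderm-only classes overlap almost wholly near 10 tags, and shared regions lie above them at 19 and 17 tags.

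The distance rules left a wide range of isolation. The nearest shared region lay a median of 11.1 kb away (quartiles 7.36 and 18.5 kb). There were 1476 isolated regions (44.2%) at up to 10 kb, 1150 (34.4%) at 10 to 20 kb, 652 (19.5%) at 20 to 50 kb and 65 (1.94%) beyond 50 kb. The 3 most remote from shared regions were chr7:59756460-59756533 at 137 kb, chr19:35979984-35980123 at 122 kb and chr7:2845477-2845601 at 111 kb. Their depths were 13 and 10 tags, 10 and 11 tags, and 8 and 11 tags in replicates 1 and 2, so the most remote regions were of ordinary strength. In the last of them the 2 peaks overlapped by 11 bp only.

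The nearest other periderm-only region lay a median of 65.9 kb away (quartiles 37.5 and 115 kb), and beyond 100 kb for 1048 isolated regions (31.3%). The most remote by this measure were chr10:30202542-30202609 at 547 kb, chr6:2330296-2330390 at 508 kb and chr21:27460843-27460916 at 496 kb. They had 8 and 10 tags, 9 and 8 tags, and 12 and 12 tags. Median depth hardly moved with isolation, while the share of deeper regions did differ with the distance from other periderm-only regions. Median depths in replicates 1 and 2 were 10 and 10 tags at up to 10 kb from a shared region and 10 and 10 tags beyond 50 kb. Between these limits, at 10 to 20 kb and at 20 to 50 kb, the median depths were 9 and 10 tags. By distance from another periderm-only region, median depths were 10 and 11 tags at up to 50 kb and 9 and 10 tags in each of 3 groups farther away. The share with at least 10 tags in both lists was 42.4% at up to 50 kb from another periderm-only region and between 33.8% and 34.6% in those 3 groups. By distance from shared regions it was 37.9%, 37.1%, 35.3% and 43.1% from the nearest group to the farthest, the last with 65 regions.

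**Figure D3:**
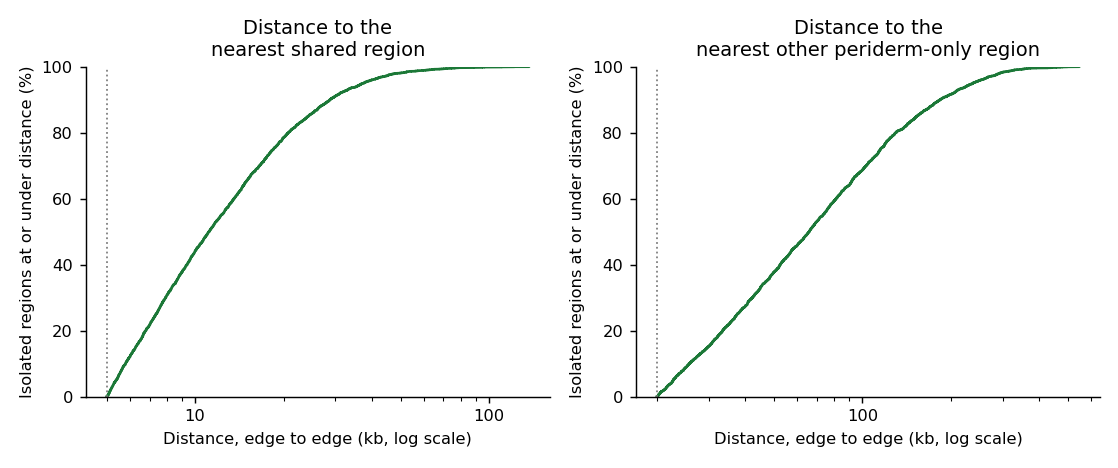
Share of isolated regions (y axis, percent) at or under each edge-to-edge distance (x axis, kb, log scale) from the nearest shared region (left) and from the nearest other periderm-only region (right). Dotted lines mark the limits of 5 and 20 kb, and the curves reach 137 kb and 547 kb.

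The limits cut through a continuous spread. Just inside the limit of 5 kb lay chr13:46591841-46591968, 5003 bp from a shared region, with 8 and 7 tags. Just outside it lay chr22:8785247-8785336, at 5000 bp, with 7 and 10 tags. Just inside the limit of 20 kb lay chr14:46263547-46263759, 20005 bp from another periderm-only region, with 15 tags in both lists. Just outside it lay chr12:1275318-1275383, at 19980 bp, with 8 and 9 tags.

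Isolation from shared and periderm-only regions was not isolation from all peaks. Of 271004 regions more than 5 kb from any shared region, 72.9% were called in 1 list alone, 1.85% were periderm-only and 6.07% were GFP-negative-only, called in both GFP-negative lists and in neither GFP-positive list. The isolated regions made up 1.23% of them. The nearest other region of any kind lay a median of 772 bp from an isolated region (quartiles 238 and 1882 bp, highest 12.8 kb). That neighbour was called in 1 list alone in 74.4% of cases. It was called in GFP-positive lists alone in 24.8%, in 1 GFP-negative list alone in 49.6%, in both GFP-negative lists alone in 4.70% and in lists of both groups in 20.9%. Among all other regions more than 5 kb from shared ones, the same shares were 22.3%, 52.1%, 6.15% and 19.5%. The neighbours of isolated regions thus had nearly the make-up of this remote part of the genome at large. The rule fixes part of this make-up. The limit of 20 kb keeps periderm-only regions out of the neighbours, while the comparison still holds the 1668 clustered ones.

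GFP-negative peaks were then counted around the isolated regions. A peak of GFP-negative replicate 1 lay within 1 kb of 1270 isolated regions (38.0%), and a peak of replicate 2 within 1 kb of 802 (24.0%), a mean of 30.99% ± 9.90 (SD, n = 2). This mean was 13.8% when only the upper 50% of each list entered and 13.8% when equal numbers of peaks entered. Within 500 bp the shares were 23.8% and 14.4%. By distance from the centre, a peak of GFP-negative replicate 1 or 2 lay in the first 500 bp bin at 20.1% and 11.8% of isolated regions, below the 26.3% and 18.7% in the bin from 5500 to 6000 bp, outside the reach of the rule on shared regions. With either list counted, 1549 isolated regions (46.3%) had a GFP-negative peak within 1 kb and 3071 (91.9%) within 5 kb. For regions near shared ones the share within 1 kb of either list was 67.6%, and for clustered regions 42.5%. The class rules bear on the first of these shares. Each shared region holds a peak of both GFP-negative lists, and 33.1% of the near-shared regions lay within 1 kb of a shared region. The GFP-negative peaks within 1 kb had a median depth of 10 tags in both lists, as did the isolated regions in the GFP-positive lists. This scaled to 0.236 and 0.266 tags per 1000000, against 0.401 and 0.339 tags per 1000000 for the isolated regions, while the weakest peaks that could be called also lay lower in the GFP-negative lists, as given above. The nearby peaks lay at median percentiles 37.0 and 33.3 of their lists, between the 52.7 and 29.8 of the isolated regions in theirs. Reads at the isolated regions in GFP-negative cells were not used here, so how far signal falls there was not measured.

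GFP-negative peaks nearby were also read along the range of depth. The share of isolated regions with such a peak within 1 kb was 57.4%, 50.8%, 49.4%, 43.8% and 36.0% in 5 groups of rising depth, with sums over both lists of 11 to 13, 14 to 16, 17 to 20, 21 to 30 and 31 to 98 tags. The groups held 68, 512, 1168, 1264 and 331 regions, and the differences between them were not tested. Within 5 kb the share varied only from 90.3% to 94.9%. Peaks touched the edge at the 3 closest regions, chr9:45734349-45734466 (7 and 10 tags), chr12:2351907-2352056 (11 and 11 tags) and chr15:29840883-29841085 (7 and 12 tags), each beside a peak of GFP-negative replicate 1. The farthest from any GFP-negative peak were chr23:9375267-9375367 at 16.2 kb (14 and 10 tags), chr14:16139712-16139862 at 15.5 kb (15 and 12 tags) and chr1:17025125-17025235 at 15.45 kb (8 and 8 tags). Beyond 10 kb there were 17 isolated regions.

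Around the isolated regions, peaks of all 4 lists were sparser up to 5 kb from the centre than beyond, as the rule on shared regions requires. In the bin from 5500 to 6000 bp, another peak was found at 18.1% and 10.9% of isolated regions in GFP-positive replicates 1 and 2, and at 26.3% and 18.7% in GFP-negative replicates 1 and 2. Inside the first 5 kb, the bin next to the centre was set beside a later one. In the 500 bp bin next to the centre, 16.2% of isolated regions had another peak of GFP-positive replicate 1, against 12.95% in the bin from 2000 to 2500 bp. For GFP-positive replicate 2 the values were 4.73% and 3.77%. For GFP-negative replicates 1 and 2 they were 20.1% and 20.8%, and 11.8% and 12.2%. Against that later bin the GFP-positive lists were slightly higher next to the region, and the GFP-negative lists nearly level. In the bin from 500 to 1000 bp, GFP-positive replicate 1 had 13.5% and replicate 2 had 4.82%. Within the first 5 kb only replicate 1 was thus highest next to the centre. Any peak that overlaps an isolated region is part of it and was left out, and by the rule none of these is GFP-negative. The region's own width is thus out of the first bin for all 4 lists. In clustered regions the rise over the bin from 2000 to 2500 bp was larger. It went from 19.2% to 24.9% in GFP-positive replicate 1 and from 9.65% to 14.7% in replicate 2. The limit of 20 kb itself favours this difference. A clustered region has another periderm-only region, with peaks of both GFP-positive lists, within 20 kb, and an isolated region has none. How much of the larger rise remains without such neighbours was not tested. Within 5 kb of the centre an isolated region had on average 1.46 and 0.421 other peaks of GFP-positive replicates 1 and 2, and 2.28 and 1.32 of GFP-negative replicates 1 and 2. The lists differ in length, with 336052, 190059, 455867 and 333588 peaks in the same order. The limit of 20 kb also keeps other periderm-only regions out of these counts. No other peak of any list lay within 5 kb of the centre of 154 isolated regions (4.61%), and no GFP-negative peak within 5 kb of 280 (8.38%).

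**Figure D4:**
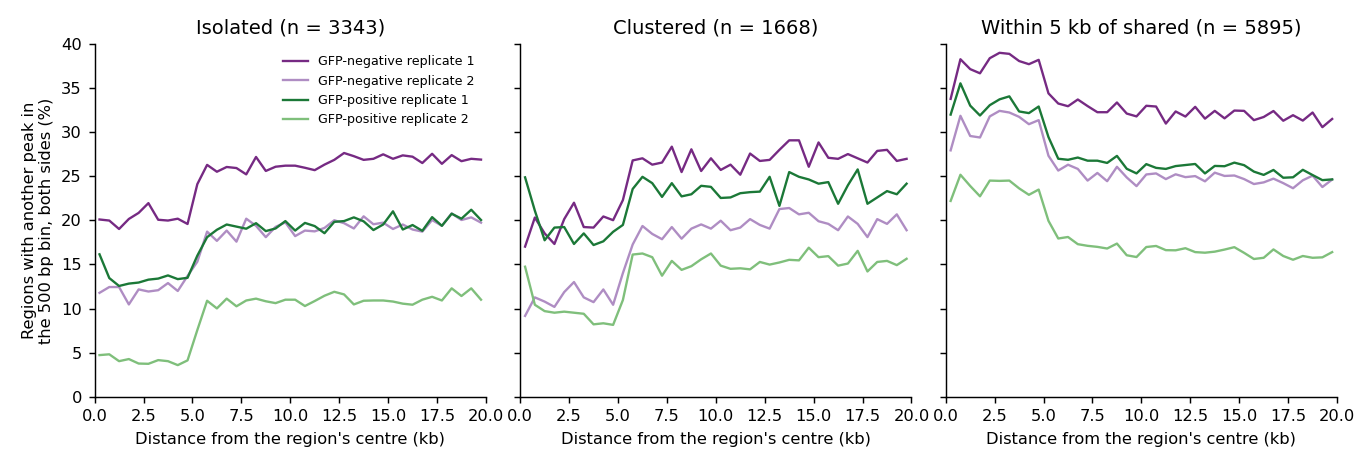
Percent of isolated (left), clustered (middle) and near-shared (right) periderm-only regions with another peak of each list in 500 bp bins (y axis) by distance from the region's centre (x axis, kb), with a line per library. Peaks of the region itself are left out, so no counted peak of any list overlaps it. Lines for isolated regions lie low up to 5 kb and step up beyond it. Among them, the line of GFP-positive replicate 1 is higher in the bin next to the centre than in the other bins up to 5 kb.

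The same rule was applied to GFP-negative-only regions. Of 39772 such regions, 5275 (13.3%) lay more than 5 kb from shared regions and more than 20 kb from each other, against 30.7% of periderm-only regions. The classes differ in number, on which a limit of 20 kb bears directly, and the shares were not compared by a test. The nearest GFP-negative-only region lay a median of 14.9 kb from an isolated periderm-only region, and within 1 kb for 157 of them (4.70%).

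The isolated regions were spread over all 25 chromosomes. Their number ran from 91 on chromosomes 21 and 25 to 193 on chromosome 5, with a median of 136. Per Mb, measured up to the last peak of a chromosome, there were 2.04 on chromosome 21, a median of 2.45, 2.88 on chromosome 14 and 3.04 on chromosome 20. Chromosome 20 also had the most periderm-only regions per Mb (9.06). The share of periderm-only regions that were isolated ran from 26.6% on chromosome 8 to 36.0% on chromosome 14. Chromosome 14 had the fewest shared regions per Mb (73.4). Over the 25 chromosomes the density of isolated regions tended to be lower where that of shared regions was higher (Pearson's r = -0.56). This describes points from the same lists, where the rule itself removes regions near shared ones. Median depth varied little, from 9 to 11 tags in replicate 1 and from 10 to 11 tags in replicate 2.

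In the 123 full tiles of 10 Mb there were 25.0 ± 5.28 isolated regions (SD over tiles), from 13 to 38. The fullest tile was chromosome 4 from 50000001 to 60000000, where 38 of 86 periderm-only regions were isolated. It held 639 shared regions. On chromosome 4 the 4 tiles from 20 to 60 Mb had 25, 27, 26 and 38 isolated regions and 608, 577, 678 and 639 shared regions. The 2 tiles before them, from 0 to 20 Mb, had 20 and 19 isolated regions and 1068 and 857 shared ones. Chromosome 4 thus had more isolated regions per tile where shared regions were fewer, a relation that the limit of 5 kb favours.

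**Figure D5:**
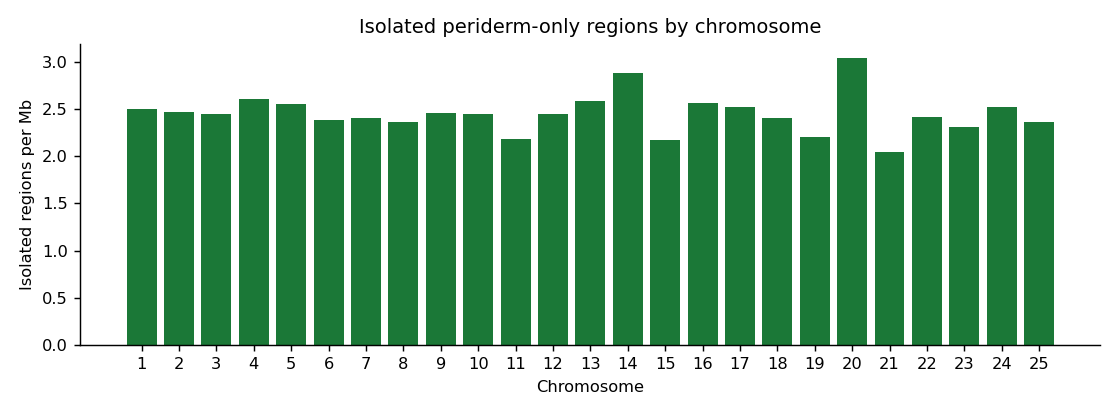
Isolated periderm-only regions per Mb (y axis) on each of the 25 chromosomes (x axis), with the extent of a chromosome taken up to its last peak. Bars run from 2.04 on chromosome 21 to 3.04 on chromosome 20.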

How the data were processed

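ATAC-seq peaks of 4 libraries were used, 2 from GFP-positive and 2 from GFP-negative cells, grouped and numbered as the labels give them. The authors trimmed reads with Trimmomatic, mapped them with Bowtie 2, removed PCR duplicates with SAMtools, kept fragments shorter than 100 bp and called peaks per library with MACS2 2.1.1 without a local background. The methods name the build danRer7 and the processing notes danRer10. The cldne elements, given in Zv9, held peaks, so positions are taken as danRer7, counted from 1. The deposited value column has no name and was read as a ratio, the fold enrichment from the authors' peak caller, with 1 added to pileup and background. Implied tags follow from the step of these values, the genome size of 1400000000 bp and the extension of 54 bp, and carry no counting interval. Values were not scaled between libraries unless stated.

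The strongest peak of a list stood for a region. Named regions follow a rule written with the design: the 10 strongest by lower percentile, 3 at each extreme of distance, width, merged peaks and difference between lists, 3 at the median, those beside the limits, and the fullest tile, with ties taken in genome order. The regions and rules were chosen with earlier results of these data known. The study's DiffBind test needs reads and was not run. Motifs, genes and sequences were not analysed here. Alternatives covered the peaks entering, the overlap, both distances, the definition of shared and each library left out. The merging of peaks, the classes and the distances were tested on simulated lists, and the reading of values as tags was not. Python 3.11.15, numpy 2.4.6, pandas 2.3.3 and matplotlib 3.10.9 were used.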

Additional observations from a re-analysis of the deposited data

How the results depend on the processing

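No paired analysis was possible because the labels do not say that a replicate number marks an incross. Cells of both kinds were sorted from each incross, so the design pairs the libraries, but the labels do not name the pairs. No value comes from a test to which a block could be added, and a description by assumed pairs was not made. The 13 alternatives were set with the design, and the cause of a change was not tested unless it follows from the setting. When only the upper 50% of a list entered, 2218 regions were isolated (42.6% of periderm-only), with a median fold of 7.80, a width of 119.5 bp and a GFP-negative peak within 1 kb of 13.8%, as weak peaks no longer entered. They held 550 of the 3343 regions. Equal numbers of peaks gave 4519 isolated regions (29.4%), a fold of 6.12, a width of 95.5 bp and again 13.8% with a GFP-negative peak within 1 kb, and held 1484 of the 3343. Limits of 2 and 10 kb from shared regions gave 5016 (46.0%) and 1867 (17.1%). Limits of 10 and 50 kb from other periderm-only regions gave 3906 (35.8%) and 2082 (19.1%). Shared regions defined by at least 3 lists left 2217 (20.3%), and joining peaks up to 100 bp apart gave 3281 (31.9%). An overlap of 50% of the shorter peak gave 3283 (30.6%) and held 2863 of the 3343.

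Leaving out a library judges 1 group on 1 list, which makes periderm-only regions denser. It also loosens the definition of shared, since a region then needs a peak only in the remaining lists. The number of isolated regions then ran from 2285 to 5593, their share from 2.16% to 23.3%, the median fold from 4.59 to 5.38, the width from 59 to 83.5 bp and the share with a GFP-negative peak within 1 kb from 26.1% to 37.9%. The ends of that last range come from GFP-negative replicate 2 alone and replicate 1 alone. With all libraries these lists gave 24.0% and 38.0%. The lowest fold and the lowest width each come from 1 GFP-positive list. Of the 3343 regions, 1580 stayed isolated without GFP-positive replicate 1, 199 without GFP-positive replicate 2, 2287 without GFP-negative replicate 1 and 2622 without GFP-negative replicate 2. The share fell to 16.4%, 2.16%, 20.4% and 23.3% in the same order, and the number was 5593 without GFP-positive replicate 1. Median depths of 10 tags lie close to the weakest calls of 5 and 6 tags, and what deeper libraries would call was not tested.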
